A study of Homo sapiens with 12 samples.

Results

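The 8 genes described here encode the adhesive and plaque proteins of the desmosome: the desmogleins DSG2 and DSG3, the desmocollins DSC2 and DSC3, desmoplakin (DSP) and the plakophilins PKP1, PKP2 and PKP3. They were taken by gene identifier from a table of 58233 genes, and 8 of 8 passed the filter on low counts that left 15749 genes for testing. Desmosomes are calcium-dependent spot junctions that couple epithelial cells. Desmogleins and desmocollins bind each other across the gap between cells, plakoglobin and the plakophilins hold their tails in a plaque, and desmoplakin ties that plaque to keratin filaments. In the mammary gland they join the cells of both epithelial layers.

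The samples were 12 RNA-seq libraries of the mammary epithelial line MCF10-A, which is human and not tumour-derived, from 3 derivatives labelled Vector, B4-4 and Addback, each with the treatment labels NA and EDTA and 2 libraries per combination. EDTA is a chelator of calcium and other divalent ions. The cells of all 6 groups had been kept detached for 3 hours in medium without serum, on poly-HEMA plates that prevent attachment. The series title concerns integrin alpha6beta4, of which ITGB4 encodes the beta4 subunit. The sources used here do not say how B4-4 and Addback were made, whether each is 1 clone, what NA stands for, or how much EDTA was given and when. Libraries are numbered as replicates with no mention of separate cultures, so the spread behind each p-value may be technical. All groups derive from 1 line, and no attached culture was analysed here.

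Library totals ran from 15685376 to 22156173 counts. The ITGB4 counts ran from 31658 to 41752 in Vector, from 3172 to 7323 in B4-4 and from 18940 to 26818 in Addback, with no overlap between derivatives (B4-4 against Vector in NA, log2 fold change -2.62 ± 0.30 SE, edgeR adjusted p = 0.00334). Replicate libraries differed by a coefficient of variation of 2.98% to 10.01% in 4 groups, but of 22.2% in B4-4 NA and 16.3% in Addback EDTA, where 395 and 215 genes differed at least 2-fold within the pair. B4-4 NA 2 and Vector EDTA 2 carried library numbers of the same series as the 4 Addback libraries, and the other 6 libraries a later series. The series thus largely follows the derivative, and only B4-4 NA and Vector EDTA hold both. Addback EDTA 2 alone was sequenced in lane 7. All 9 markers of basal and general mammary epithelium were detected, at a summed 9444 to 14477 CPM (CPM are counts scaled to a common library size). Leukocyte markers summed to at most 1.72 CPM with CD3E and LYZ at 0. The endothelial marker CDH5 and the cardiac markers MYH6 and MYH7 had 0 counts in all libraries, but their lists were not silent. The 4 endothelial markers summed to 3.35 to 34.3 CPM, nearly all from the 1 gene of them that passed the filter. The 4 cardiac markers summed to at most 2.66 CPM.

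The 4 cadherin genes lie in 1 cluster on chromosome 18, which holds 7 genes in 559 kb (GRCh38, GENCODE release 29). DSC3 (ENSG00000134762) spans 30990008 to 31042815 and DSC2 (ENSG00000134755) 31058840 to 31102522, both on the minus strand. DSG3 (ENSG00000134757) spans 31447795 to 31478702 and DSG2 (ENSG00000046604) 31498043 to 31549008, both on the plus strand. The 3 genes between DSC2 and DSG3 are the desmosomal cadherins of differentiating epidermis and hair, and they were close to silent: DSC1 had at most 5 counts in a library, DSG1 at most 9 and DSG4 at most 1. The plaque genes are dispersed: DSP (ENSG00000096696) at chromosome 6, 7541575 to 7586717, PKP1 (ENSG00000081277) at chromosome 1, 201283452 to 201332993, PKP2 (ENSG00000057294) at chromosome 12, 32790745 to 32896840, and PKP3 (ENSG00000184363) at chromosome 11, 392614 to 404908. DSG2 overlaps the antisense gene DSG2-AS1 over 171 exonic bases. The antisense gene had 2 to 18 counts per library against 5803 or more for DSG2.

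Promoter windows of 300 bases (250 before and 50 after the start, RefSeq on GRCh38.p14) were found for 6 of the 8 genes, 7 windows in all. The neighbours DSC3 and DSC2 differed in opposite directions in Addback against B4-4 in NA (log2 0.91 and -1.11) and in B4-4 against Vector in EDTA (-0.78 and 0.67). In B4-4 against Vector in NA, and in Addback against B4-4 or Vector in EDTA, the values of both were below 0. Below are the windows of DSC3, of DSC2 and of DSP, the most abundant of the 8 per length. Each is given 5′ to 3′ on the gene's strand, from chr18:31042693-31042992 (minus), chr18:31102372-31102671 (minus) and chr6:7541421-7541720 (plus), with matches to the E-box CACCTG or its reverse complement CAGGTG in capitals.
DSC3: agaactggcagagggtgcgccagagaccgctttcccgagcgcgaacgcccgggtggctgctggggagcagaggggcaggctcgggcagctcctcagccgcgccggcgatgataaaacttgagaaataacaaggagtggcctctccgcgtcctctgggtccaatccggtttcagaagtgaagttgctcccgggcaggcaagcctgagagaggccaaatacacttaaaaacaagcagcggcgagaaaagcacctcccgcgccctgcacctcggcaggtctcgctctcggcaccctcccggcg
DSC2: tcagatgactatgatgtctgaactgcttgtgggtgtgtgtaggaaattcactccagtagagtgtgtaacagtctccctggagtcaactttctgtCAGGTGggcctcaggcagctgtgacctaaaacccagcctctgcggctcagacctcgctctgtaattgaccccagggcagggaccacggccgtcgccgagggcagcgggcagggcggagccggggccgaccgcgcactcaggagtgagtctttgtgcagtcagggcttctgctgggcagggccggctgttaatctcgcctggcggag
DSP: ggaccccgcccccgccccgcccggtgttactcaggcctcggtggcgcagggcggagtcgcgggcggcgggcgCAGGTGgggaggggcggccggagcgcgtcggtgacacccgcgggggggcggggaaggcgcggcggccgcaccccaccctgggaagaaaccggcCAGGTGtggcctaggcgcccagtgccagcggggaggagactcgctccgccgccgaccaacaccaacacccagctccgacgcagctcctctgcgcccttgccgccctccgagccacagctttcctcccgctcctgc

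The E-box, a binding sequence of the Snail family of repressors, was present in this DSC2 window at positions -156 to -151 from the start, and in the DSP window at -178 to -173 and -85 to -80. DSG2 held it at -232 to -227 and -116 to -111. It was not found in the windows of DSC3, DSG3 or PKP1 or in a second DSC2 window, and 20.6% of all 35116 promoter windows hold it. The AP-1 motif TGANTCA (7.71% of windows), the grainyhead motif AACCNGTT (1.73%) and the C/EBP motif TTGCNNAA (10.5%), searched on both strands, matched none of the 7 windows. A match is a string of letters, not evidence of binding.

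Per kilobase of merged exons, the mean level over the 12 libraries was highest for DSP (178 CPM per kb). The cadherins DSG3 (76.5), DSG2 (69.9) and DSC3 (59.3) followed on the same scale, then PKP3 (39.2), PKP2 (21.6) and DSC2 (9.04), with PKP1 last at 0.119. The merged length of DSC2 is 12495 bases, while its shortest coding transcript has 4778, and the ranks over all libraries were the same with the longest coding transcript as the length. The order of the cadherins changed between groups. DSC3 was the highest cadherin in Vector EDTA (75.7 CPM per kb) and Addback NA (81.7), DSG3 in Vector NA (116) and B4-4 NA (79.2), and DSG2 in B4-4 EDTA (87.6) and Addback EDTA (60.0). In Vector EDTA the DSC3 and DSG3 levels (75.7 and 74.8) were closer than the 2 libraries of either gene. In these bulk samples, fewer cells with a transcript and less transcript per cell cannot be told apart.

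**Figure D1:**
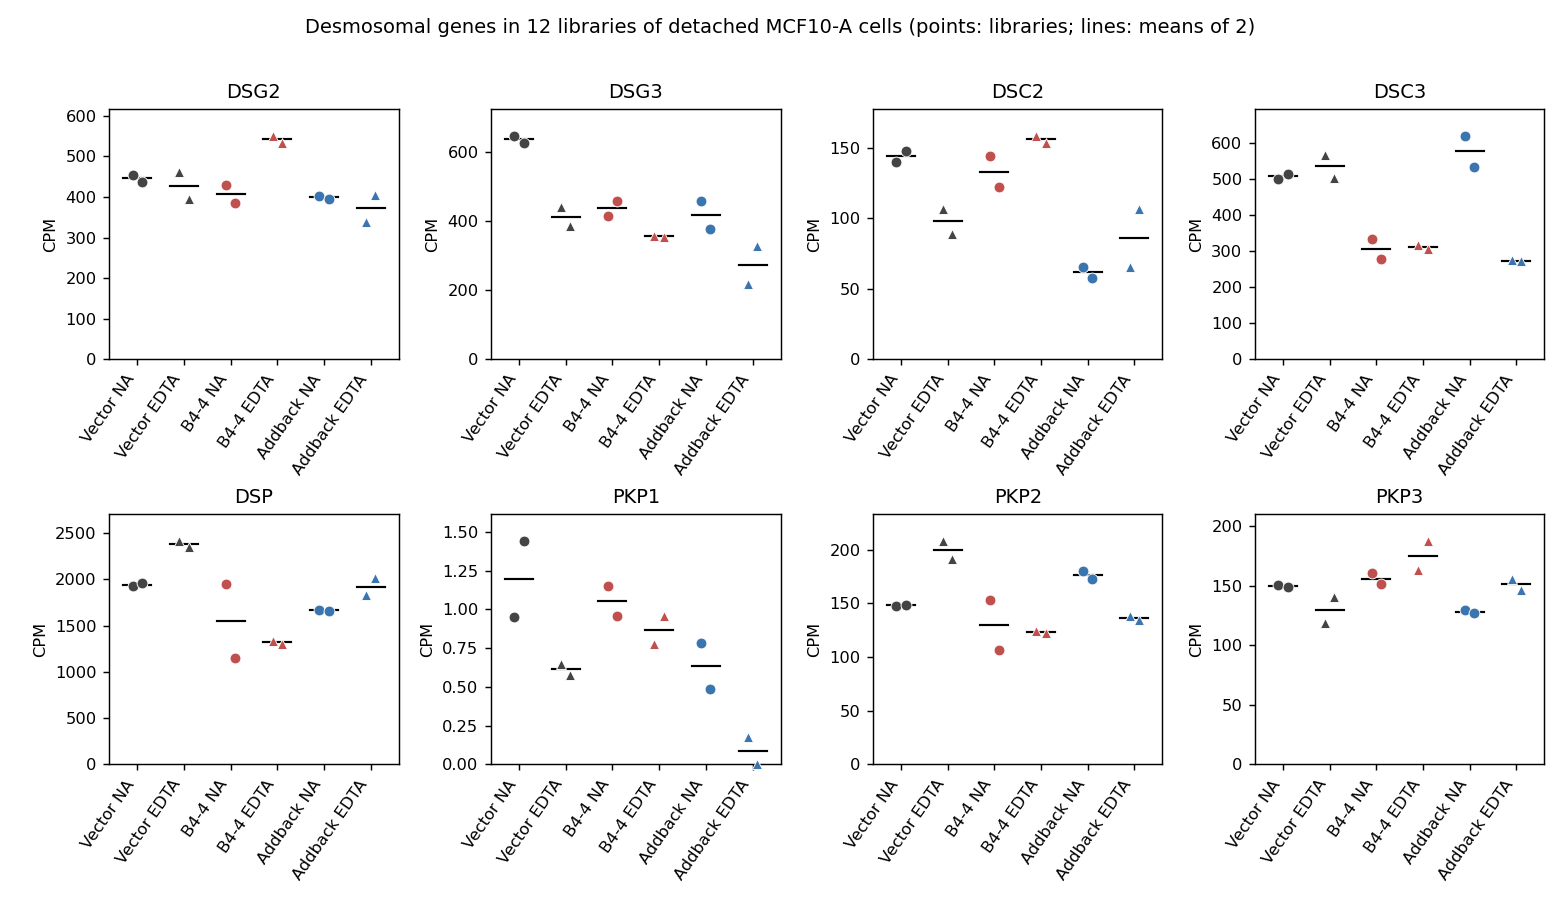
Level of each of the 8 genes in CPM (vertical axis, from 0) in the 6 groups (horizontal axis). Points are libraries (circles NA, triangles EDTA), lines are means of 2. DSC3 sits near 271 to 334 CPM in B4-4 and Addback EDTA and near 501 to 619 elsewhere, and DSC2 is lowest in Addback NA.

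A gene was called where edgeR's quasi-likelihood test on all 12 libraries gave an adjusted p under 0.05 (Benjamini-Hochberg, over the 15749 genes). For EDTA against NA, 2 of the 8 genes were called in Vector against 15.3% of all genes, 1 of 8 in B4-4 against 19.9%, and 3 of 8 in Addback against 16.9%. For B4-4 against Vector, 1 of 8 was called in NA against 7.16% of all genes, and 6 of 8 in EDTA against 43.4%. For Addback against B4-4, 3 of 8 were called in NA against 23.6%, and 3 of 8 in EDTA against 14.1%. For Addback against Vector, 2 of 8 were called in NA against 36.1%, and 4 of 8 in EDTA against 30.0%. With 8 genes, 1 call more or less moves such a share widely, and nothing particular to these genes is read from them. In B4-4 against Vector in EDTA calls went both ways: 3 rose (DSG2, DSC2, PKP3) and 3 fell (DSC3, DSP, PKP2), with a median log2 change of 0.06 beside 0.00 over all genes. All 4 calls of Addback against Vector in EDTA, all 3 of Addback against B4-4 in EDTA and all 3 of EDTA in Addback were lower. Each of these sets includes PKP1, which had 3 and 0 counts in the Addback EDTA libraries. Of all genes, 8.29% were lower for EDTA in Addback, and the lower share is not given here for the comparisons of derivatives. No direction particular to these genes is read from this. Among these 9 comparisons of groups the lowest medians were -0.43 in Addback against Vector in EDTA, where all genes had 0.01, and -0.30 in Addback against B4-4 in EDTA, also beside 0.01. These comparisons share libraries, so they are not independent of each other.

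DSC3, the desmocollin typical of the basal layer of stratified epithelia, was lower in all B4-4 libraries and in Addback EDTA than in all others. Its levels were 501 and 514 CPM in Vector NA, 565 and 503 in Vector EDTA, 619 and 534 in Addback NA, 334 and 278 in B4-4 NA, 317 and 306 in B4-4 EDTA, and 276 and 271 in Addback EDTA. The 6 libraries of the first 3 groups were all above the 6 libraries of the others, with a gap between 334 and 501 CPM. In order of group mean, Addback NA (576 ± 59.9 CPM, SD, n = 2), Vector EDTA (534 ± 44.0) and Vector NA (507 ± 9.45) were neighbours that did not pass the test where compared. B4-4 EDTA (312 ± 7.53), B4-4 NA (306 ± 39.6) and Addback EDTA (274 ± 3.19) were likewise close to each other.

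DSC3 was lower in B4-4 than in Vector, by -0.73 ± 0.11 (log2 fold change ± SE, adjusted p = 0.00369) in NA and by -0.78 ± 0.11 (adjusted p = 0.000174) in EDTA. In NA, Addback had 1.88 times the DSC3 level of B4-4 (0.91 ± 0.11, adjusted p = 0.000166), and its difference from Vector was 0.18 with limits of -0.03 to 0.40 (2 SE either side, adjusted p = 0.207). That difference passed with the library number series as a term (0.40, adjusted p = 0.0294) and in a fit of the 4 libraries alone (0.0142). In EDTA this was no longer so: Addback was at 0.512 times the Vector level (-0.97 ± 0.11, adjusted p = 8.3e-05), with a difference from B4-4 of -0.19 (-0.41 to 0.03). EDTA lowered DSC3 in Addback (-1.08 ± 0.11, adjusted p = 0.000103), while the changes in Vector (0.07, -0.14 to 0.29) and B4-4 (0.03, -0.19 to 0.24) did not pass. The EDTA effect in Addback differed from that in Vector by -1.15 ± 0.15 (adjusted p = 0.000313) and from that in B4-4 by -1.10 ± 0.15 (adjusted p = 0.00141). The difference of B4-4 from Vector in NA lost its call without Vector NA 1 (adjusted p = 0.0501) or Vector NA 2 (0.0575) and in a fit of those 4 libraries alone (0.148). The other 6 called values of DSC3 were kept under all 19 alternatives, among them the fit with the library number series as a term. That term can be estimated only from B4-4 NA and Vector EDTA, the groups that hold both series.

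DSC2, the desmocollin found in nearly all epithelia, had its lowest levels in Addback. Its levels were 139.6 and 148 CPM in Vector NA, 107 and 88.8 in Vector EDTA, 144 and 122 in B4-4 NA, 158 and 154 in B4-4 EDTA, 65.3 and 57.7 in Addback NA, and 65.3 and 106 in Addback EDTA. Both Addback NA libraries were below every Vector and B4-4 library, while the 2 Addback EDTA libraries were far apart. In NA, Addback was below Vector by -1.22 ± 0.19 (log2, adjusted p = 0.000588), which is 0.428 times the level, and below B4-4 by -1.11 ± 0.19 (adjusted p = 0.0021). Both were kept under all 19 alternatives, among them the series term. That term rests on B4-4 NA and Vector EDTA, the only groups that hold libraries of both number series. Addback NA and Vector NA share no series, so derivative and series cannot be told apart between them. In NA the Addback derivative was thus above B4-4 in DSC3 and below both Vector and B4-4 in DSC2.

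In EDTA, DSC2 was higher in B4-4 than in Vector (0.67 ± 0.19, adjusted p = 0.0133) and lower in Addback than in B4-4 (-0.86 ± 0.19, adjusted p = 0.0119). The first was lost without B4-4 EDTA 1 (0.0624) or Vector EDTA 2 (0.106) and with the library number series as a term (0.0534). The second was lost without B4-4 EDTA 1 (0.0763) or 2 (0.0599), with the series term (0.19) and in a fit of the 4 libraries alone (0.0763). EDTA itself gave DSC2 changes of -0.56 in Vector (adjusted p = 0.0672), 0.23 in B4-4 (0.408) and 0.48 in Addback (0.106), none of which passed. Under the alternatives, the change in Vector passed with DESeq2 (adjusted p = 0.0274), with no filter on low counts (6.79e-05) and in a fit of its 4 libraries alone (0.00375). That in Addback passed with no filter (0.00124). Without Addback EDTA 1 the change in Addback passed (0.00326), and without Addback EDTA 1 or 2 so did that in Vector (0.00761 and 0.00759). The EDTA effect on DSC2 differed from that in Vector by 1.04 ± 0.27 in Addback (adjusted p = 0.0162) and by 0.79 ± 0.26 in B4-4 (0.0465). The Addback difference was lost without Addback NA 2 (0.0668), Vector EDTA 2 (0.0634) or Vector NA 2 (0.055). The B4-4 difference was lost without any 1 of 10 libraries (0.0504 to 0.157, all but the Addback EDTA pair) and with the series term (0.251). The summed level of the 8 fibroblast markers, 6 with over 3 counts in a library, was highest in Addback. It was 56.8 to 57.0 CPM in Addback NA and 37.8 to 68.2 in Addback EDTA, against 15.1 to 30.7 in Vector and 15.9 to 30.3 in B4-4. Against Vector in NA, 5 of the 5 tested markers were higher in Addback, where 36.1% of all genes were called. In EDTA 1 of 5 was higher (30.0% of all genes called) and the others were not called, so the list did not rise as a whole there. COL1A2 had at most 3 counts in any library, and the part of these markers in the DSC2 result was not tested.

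The ratio of DSC3 to DSC2 reads is free of library scaling. It was 3.59 and 3.48 in Vector NA, 5.29 and 5.67 in Vector EDTA, 2.32 and 2.28 in B4-4 NA, 2.002 and 1.99 in B4-4 EDTA, 9.48 and 9.25 in Addback NA, and 4.23 and 2.55 in Addback EDTA. The Addback NA pair lay above all other libraries and the B4-4 libraries below all others. Replicates were close in every group but Addback EDTA. The DSG3 to DSG2 ratio was 1.43 in both Vector NA libraries and 0.652 to 1.19 in B4-4, 0.957 and 0.976 in Vector EDTA, 1.14 and 0.954 in Addback NA, and 0.642 and 0.811 in Addback EDTA. In each derivative both EDTA libraries had a lower DSG3 to DSG2 ratio than both NA libraries. These ratios combine values tested gene by gene and carry no test of their own.

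**Figure D2:**
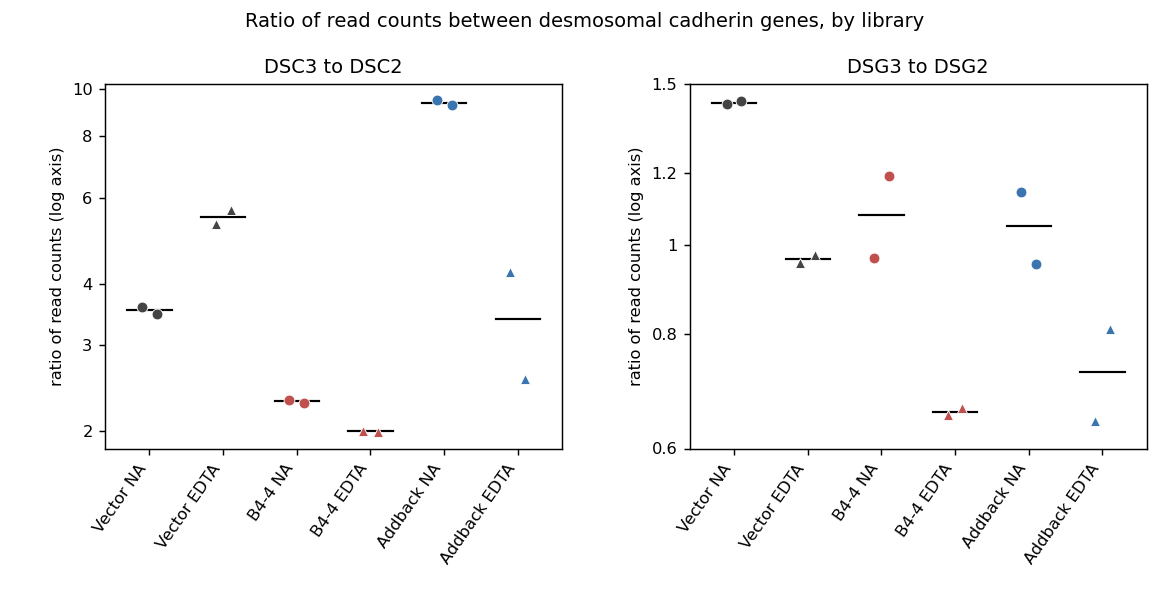
Ratio of read counts of DSC3 to DSC2 (left) and DSG3 to DSG2 (right), on log axes, in the 6 groups. Points are libraries (circles NA, triangles EDTA) and lines are means of 2. DSC3 to DSC2 spans 1.99 in B4-4 EDTA to 9.48 in Addback NA, and DSG3 to DSG2 is lower in EDTA than in NA in each derivative.

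DSG3, the desmoglein of the basal layers of stratified epithelia and the antigen of pemphigus vulgaris, was highest in Vector NA. The values were 648 and 628 CPM in Vector NA, 441 and 386 in Vector EDTA, 417 and 459 in B4-4 NA, 359 and 355 in B4-4 EDTA, 459.9 and 378 in Addback NA, and 218 and 328 in Addback EDTA. The Vector NA pair overlapped with no other library, and within each derivative both EDTA libraries were below both NA libraries. EDTA lowered DSG3 in Vector (-0.63 ± 0.16, log2, adjusted p = 0.0232) and in Addback (-0.62 ± 0.16, adjusted p = 0.0238), and the change in B4-4 was -0.30 with limits of -0.62 to 0.03 (adjusted p = 0.216). No difference between these effects passed: B4-4 minus Vector was 0.33 (-0.12 to 0.79), Addback minus Vector 0.01 (-0.45 to 0.46) and Addback minus B4-4 -0.32 (-0.78 to 0.13). DSG3 was lower in Addback than in Vector in NA (-0.61 ± 0.16, adjusted p = 0.0124) and in EDTA (-0.60 ± 0.16, adjusted p = 0.0159), and the B4-4 value in NA was -0.54 ± 0.16 (adjusted p = 0.0631).

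None of the 4 DSG3 calls was kept in every fit. The EDTA effect in Vector was lost without any 1 of the 4 libraries compared (0.0755 to 0.119) and with the library number series as a term (0.0569). That in Addback was lost without Addback EDTA 1 (0.0933) or Addback NA 1 (0.213) and in a fit of its 4 libraries alone (0.129). Addback against Vector was lost in NA without Addback NA 2 (0.111) or Vector NA 1 (0.0607) and with the series term (0.11), and in EDTA without Addback EDTA 1 (0.0883) or Vector EDTA 1 (0.0922). In the other direction, B4-4 against Vector in NA passed with DESeq2 (-0.55, adjusted p = 0.0153) and with no filter on low counts (-0.56, 4.59e-05). Without Addback EDTA 1 or 2 it was -0.54 both times. B4-4 against Vector in EDTA passed in a fit of its 4 libraries alone (-0.22, adjusted p = 0.0369), and Addback against B4-4 in EDTA with no filter (-0.39, 0.00941). Without Addback EDTA 2, Addback against B4-4 in EDTA (0.00498) and the difference of their EDTA effects (0.0385) also passed.

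DSG2, the desmoglein common to all desmosome-bearing tissues, varied least among the cadherins, 1.62-fold over the 12 libraries. Its levels were 454 and 438 CPM in Vector NA, 460.5 and 396 in Vector EDTA, 431 and 386 in B4-4 NA, 550.3 and 534 in B4-4 EDTA, 402.5 and 396 in Addback NA, and 339 and 404 in Addback EDTA. The B4-4 EDTA pair was above all other libraries, and the remaining groups overlapped with 1 or more others. DSG2 rose with EDTA in B4-4 (0.41 ± 0.11, log2, adjusted p = 0.0212), and in EDTA it was higher in B4-4 than in Vector (0.34 ± 0.11, adjusted p = 0.0225) and lower in Addback than in B4-4 (-0.54 ± 0.11, adjusted p = 0.00624). The EDTA changes in Vector (-0.06, -0.28 to 0.16) and Addback (-0.10, -0.32 to 0.11) did not pass. The EDTA effect in B4-4 exceeded that in Vector by 0.47 ± 0.15 (adjusted p = 0.0387), and that in Addback was lower than in B4-4 by -0.51 ± 0.15 (adjusted p = 0.0569). The latter difference passed with DESeq2 (adjusted p = 0.0279), with no filter on low counts (0.0315) and with upper-quartile scaling (0.0454).

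None of the 4 DSG2 calls was kept in every fit either. Upper-quartile scaling lost B4-4 against Vector in EDTA (adjusted p = 0.0517) and the EDTA effect difference B4-4 minus Vector (0.0672). The EDTA effect in B4-4 was lost without B4-4 EDTA 1 (0.142), B4-4 EDTA 2 (0.101) or B4-4 NA 2 (0.0587) and in a fit of its 4 libraries alone (0.104). B4-4 against Vector in EDTA was lost without B4-4 EDTA 1 (0.117), B4-4 EDTA 2 (0.0767) or Vector EDTA 2 (0.163) and with the library number series as a term (0.061). Addback against B4-4 in EDTA was lost without Addback EDTA 1 (0.0542) or B4-4 EDTA 1 (0.0605) and with the series term (0.111). The EDTA effect difference B4-4 minus Vector was lost without any 1 of 8 libraries (0.0598 to 0.137) and with the series term (0.208), and Addback minus B4-4 passed without Addback EDTA 2 (0.0221) or B4-4 NA 1 (0.0094). The 4 endothelial markers summed to 3.35 to 3.62 CPM in B4-4 EDTA and 9.39 to 34.3 in the other groups. CDH5 was at 0 and only 1 of the 4 passed the filter, so this sum is in effect the level of 1 gene. Its part in the DSG2 result was not tested.

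DSP, which anchors keratin filaments to the plaque, was the most abundant of the 8 per length and separated B4-4 from Vector in EDTA. Its levels were 1929 and 1959 CPM in Vector NA, 2413 and 2352 in Vector EDTA, 1953 and 1146 in B4-4 NA, 1331 and 1306 in B4-4 EDTA, 1667 and 1661 in Addback NA, and 1831 and 2014 in Addback EDTA. The Vector EDTA pair was above all other libraries. The B4-4 NA libraries were far apart: B4-4 NA 1 was at the level of Vector NA and B4-4 NA 2 was the lowest of the 12, below B4-4 EDTA. In EDTA, DSP was 0.554 times as high in B4-4 as in Vector (-0.85 ± 0.18, log2, adjusted p = 0.00322), a call kept under all 19 alternatives. No other DSP comparison passed, among them EDTA in Vector (0.29, -0.07 to 0.65, adjusted p = 0.305) and Addback against B4-4 in EDTA (0.54 ± 0.18, adjusted p = 0.0693).

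Without either library of the split B4-4 NA pair, further DSP differences passed. In the comparisons that do not use B4-4 NA, the log2 changes themselves hardly moved. Without B4-4 NA 1 or B4-4 NA 2, EDTA against NA was 0.30 and 0.29 in Vector, against 0.29 with all 12 libraries. In Addback it was 0.20 and 0.21, against 0.21. Addback against B4-4 in EDTA was 0.55 and 0.54, against 0.54. Addback against Vector was -0.22 and -0.23 in NA, against -0.22, and -0.31 both times in EDTA, against -0.31. In fits of only the groups compared, EDTA in Vector (adjusted p = 0.00314) and Addback against Vector in NA (0.000128) passed. So did Addback against B4-4 in EDTA (0.0104), which also passed with DESeq2 (0.0229). For B4-4 in NA the result turned on which library was kept, and the log2 changes moved. Without B4-4 NA 1, B4-4 against Vector in NA was -0.77, against -0.33 with all 12 libraries. Addback against B4-4 in NA was then 0.55, against 0.10. Without B4-4 NA 2, EDTA against NA in B4-4 was -0.56, against -0.23. The EDTA effects of B4-4 and Vector then differed by -0.85, against -0.53, and those of Addback and B4-4 by 0.78, against 0.44. With the library number series as a term, which B4-4 NA 1 and 2 also differ in, EDTA raised DSP in Vector (0.51, adjusted p = 0.042) and Addback exceeded B4-4 in EDTA (0.95, adjusted p = 0.0127). The EDTA effect then differed between B4-4 and Vector by -0.90 (adjusted p = 0.0178), against -0.53 (0.149) without the term.

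PKP2, the plakophilin of simple epithelia, basal cells and heart muscle, was highest in Vector EDTA. The values were 148 and 149 CPM in Vector NA, 208 and 191 in Vector EDTA, 153 and 106 in B4-4 NA, 124 and 122 in B4-4 EDTA, 179.8 and 173 in Addback NA, and 138 and 134 in Addback EDTA. Vector EDTA was above every other library, the Addback NA pair came next, and B4-4 NA was again split. EDTA raised PKP2 in Vector (0.43 ± 0.13, log2, adjusted p = 0.0483), a call at the threshold, and the change in Addback was -0.37 (-0.64 to -0.10, adjusted p = 0.0774). These effects differed by -0.80 ± 0.19 (adjusted p = 0.00982), a difference kept under all 19 alternatives. In EDTA, PKP2 was lower in B4-4 than in Vector (-0.70 ± 0.13, adjusted p = 0.0014), also kept under all 19, and lower in Addback than in Vector (-0.55 ± 0.13, adjusted p = 0.0092). In NA it was higher in Addback than in B4-4 (0.44 ± 0.13, adjusted p = 0.0317).

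The EDTA effect on PKP2 in Vector was lost without any 1 of 10 libraries (0.0506 to 0.224), all but the B4-4 NA pair. Addback against B4-4 in NA was lost without Addback NA 1 (0.166) or 2 (0.107), B4-4 EDTA 1 or 2 (both 0.0558), B4-4 NA 2 (0.119), Vector NA 1 (0.057) or 2 (0.0569), and in a fit of the 4 libraries alone (0.199). Addback against Vector in EDTA was lost without Addback EDTA 2 (0.0501) or Vector EDTA 1 (0.067). As for DSP, calls were gained without a B4-4 NA library: EDTA lowered PKP2 in Addback without B4-4 NA 1 (0.00173) or 2 (0.00269), and Addback exceeded Vector in NA (0.00885 and 0.0144). Without B4-4 NA 1, PKP2 was lower in B4-4 than in Vector in NA (0.00205), and without B4-4 NA 2, EDTA changed it in B4-4 (0.0254). The EDTA effect on PKP2 differed between B4-4 and Vector by -0.51 ± 0.19 (adjusted p = 0.0663), which passed without B4-4 NA 2 (-0.74, 0.000393), with the series term (-0.81, 0.00512), with upper-quartile scaling (0.0276) and with no filter on low counts (0.0234). Addback minus B4-4 passed without B4-4 NA 1 (0.00343). With the series term PKP2 was also higher in Addback than in Vector in NA (0.57, adjusted p = 0.00914, against 0.25 without the term) and lowered by EDTA in Addback (0.0168).

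PKP3, a plakophilin present in most epithelia, varied 1.58-fold over all libraries. Its levels were 151 and 149 CPM in Vector NA, 119 and 141 in Vector EDTA, 160.4 and 151 in B4-4 NA, 163 and 188 in B4-4 EDTA, 129 and 127 in Addback NA, and 156 and 147 in Addback EDTA. Both B4-4 EDTA libraries were above the other 10, and the lowest was Vector EDTA 1. In EDTA PKP3 was higher in B4-4 than in Vector (0.43 ± 0.10, log2, adjusted p = 0.0056), lost without B4-4 EDTA 2 (0.101) or Vector EDTA 1 (0.0804). The EDTA effects were -0.21 in Vector (-0.42 to 0.00), 0.17 in B4-4 (-0.04 to 0.38) and 0.24 in Addback (0.03 to 0.45), and none passed. Those of Addback and Vector differed by 0.45 ± 0.15 (adjusted p = 0.046). That call was lost without any 1 of 9 libraries (0.0599 to 0.201) and also with DESeq2 (0.0645), with RLE (0.0638) or upper-quartile scaling (0.113). The difference B4-4 minus Vector, 0.38 ± 0.15 (0.0763), passed without B4-4 NA 1 (0.0488) or Vector EDTA 2 (0.0405).

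PKP1, the plakophilin of suprabasal epidermal cells, was barely expressed. Its counts were 17 and 28 in Vector NA, 14 and 13 in Vector EDTA, 20 and 15 in B4-4 NA, 15 and 18 in B4-4 EDTA, 14 and 9 in Addback NA, and 3 and 0 in Addback EDTA. Both Addback EDTA libraries were below all others, and no level exceeded 1.44 CPM. As summed counts scaled for library size, Addback EDTA was 7.32-fold lower than Addback NA (23 against 3 counts, exact 95% interval 2.21 to 38.1), 10.01-fold lower than B4-4 EDTA (33 against 3, 3.14 to 51.0) and 7.07-fold lower than Vector EDTA (27 against 3, 2.18 to 36.4). These intervals cover counting error only. In edgeR these comparisons had adjusted p = 0.0297, 0.0131 and 0.0182. The first was lost without Addback EDTA 2 (0.156), Addback NA 1 (0.189) or Addback NA 2 (0.0598), the second without B4-4 EDTA 1 (0.0528) or 2 (0.0809), and the third without Addback EDTA 2 (0.106), Vector EDTA 1 (0.0718) or Vector EDTA 2 (0.0533). The second was also lost with the library number series as a term (0.08) and in a fit of the 4 libraries alone (0.051). Differences of EDTA effects in PKP1 passed for Addback minus Vector (0.0319) and Addback minus B4-4 (0.0347) without Addback EDTA 1.

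**Figure D3:**
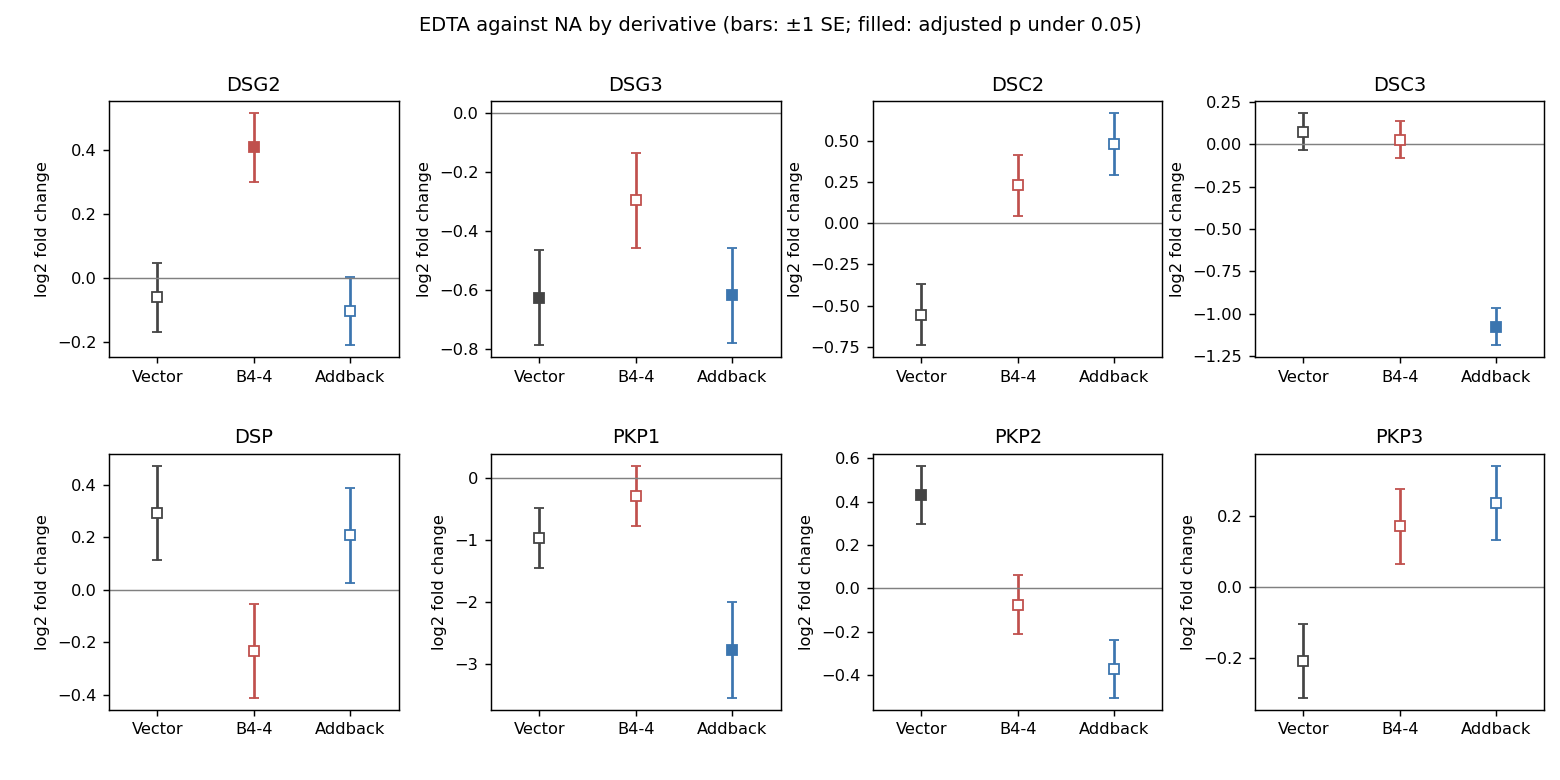
EDTA against NA in each derivative for the 8 genes: log2 fold change (vertical axis, scaled per gene) with bars of 1 SE, filled where the adjusted p was under 0.05. DSC3 falls in Addback and lies near 0 in Vector and B4-4, and DSG3 is below 0 in all 3. The PKP1 values are fitted to at most 28 counts per library.

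Compared directly, the EDTA responses of the derivatives differed for 2 of the 8 genes between B4-4 and Vector (27.0% of all genes tested), for 4 of 8 between Addback and Vector (24.2%) and for 1 of 8 between Addback and B4-4 (8.78%). The 4 genes between Addback and Vector were DSC2 and PKP3, with a more positive response in Addback, and DSC3 and PKP2, with a more negative one. Of all 32 called values of the 8 genes over the 12 comparisons, 11 were kept under every alternative: 6 of DSC3, 2 of DSC2, 1 of DSP and 2 of PKP2. No called value changed sign under any of the 19.

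**Figure D4:**
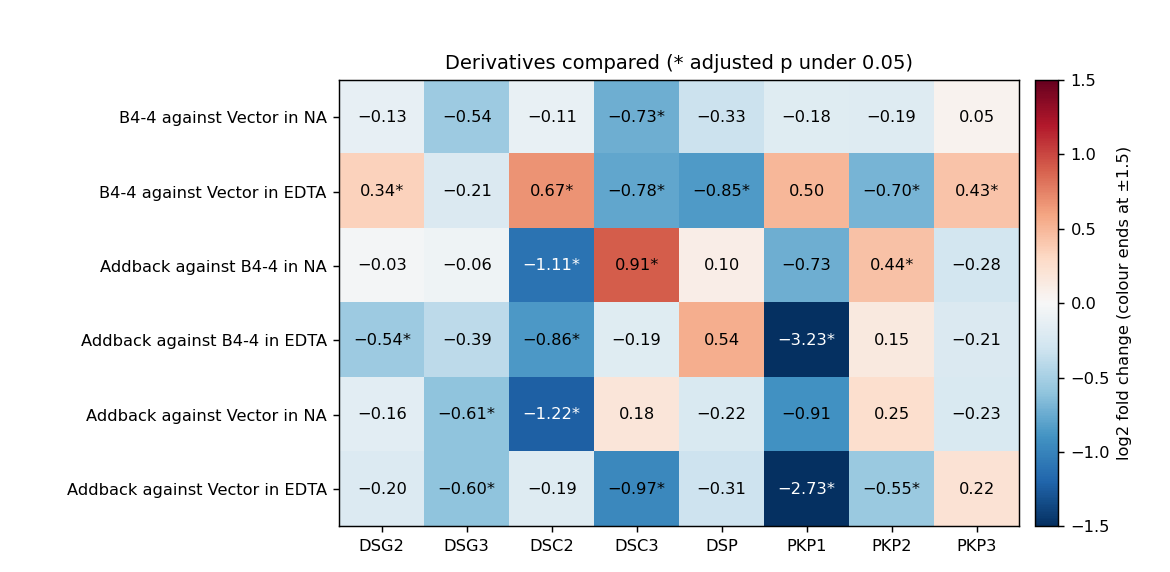
Log2 fold change of the 8 genes (columns) in the 6 comparisons between derivatives (rows), in numbers and colour (red higher, blue lower in the first-named derivative, colour ending at 1.5 either way), with a star for an adjusted p under 0.05. DSC3 is lower in B4-4 than in Vector in NA and EDTA, and DSC2 is lower in Addback than in both in NA. The PKP1 values are fitted to at most 28 counts per library.

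Of 9 further desmosome genes, 5 were tested: JUP (plakoglobin), PKP4, the tetraspan protein gene PERP, and the plakins EVPL and PPL, which link to cornified envelopes. PKP4 kept a narrow range of 93.4 to 108 CPM and was called in no comparison. PPL levels were 268 and 269 CPM in Vector NA and 236 and 239 in Vector EDTA, 224 and 155 in B4-4 NA against 86.7 and 87.01 in B4-4 EDTA, and 179.7 and 155 in Addback NA against 91.6 and 76.8 in Addback EDTA. Both EDTA libraries were below both NA libraries in each derivative. EDTA lowered PPL in B4-4 (-1.13 ± 0.15, log2, adjusted p = 0.000606) and Addback (-0.99 ± 0.15, adjusted p = 0.00121). The difference of these responses from that of Vector was -0.95 in B4-4 (adjusted p = 0.00611) and -0.81 in Addback (0.0146). The latter was lost without 6 of the libraries taken in turn (0.0504 to 0.0748). In Addback against Vector in NA, 4 of the 5 were lower, beside 18.1% of all genes: PPL (-0.68), EVPL (-0.67, adjusted p = 0.00158), PERP (-0.49) and JUP (-0.32, adjusted p = 0.0401). PERP was lost without Addback NA 2 (0.0679) or Vector NA 1 (0.0539) and JUP without 6 libraries in turn (0.0635 to 0.192), so the count ranged from 2 to 4.

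The adherens junction, the other cadherin junction of these cells, served as a comparison over 9 listed genes, all tested. In EDTA, 7 of the 9 were higher in B4-4 than in Vector, beside 22.9% of all genes higher. The count was 7 or 8 without each library in turn. They included CDH1, which encodes E-cadherin (1.22 ± 0.16, log2, adjusted p = 0.000143), the P-cadherin gene CDH3 (0.90, adjusted p = 0.000423), vinculin (VCL, 0.90, adjusted p = 0.000144) and p120-catenin (CTNND1, 0.59, adjusted p = 0.000314). In the same comparison 3 of the 8 desmosomal genes rose (DSG2, DSC2, PKP3) and 3 fell (DSC3, DSP, PKP2). EDTA lowered 5 of the 9 in Vector (8.98% of all genes were lower), a count of 2 to 6 without a library in turn, with CDH1 at -0.80 (adjusted p = 0.00684, lost without Vector EDTA 1 at 0.0554). In B4-4, EDTA raised 3 of 9 (9.88% of all genes higher), a count of 1 to 4 without a library.

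Of 13 listed keratins, the filaments that desmoplakin binds, 11 were tested. In Addback against Vector in NA 8 of them were lower, beside 18.1% of all genes lower, and the count was 7 or 8 without each library in turn. Among them were KRT16 (-3.91 ± 0.15, log2, adjusted p = 2.23e-08), KRT14 (-1.85 ± 0.26, adjusted p = 0.000785), KRT17 (-1.38 ± 0.16, adjusted p = 6.27e-05) and KRT6A (-1.07 ± 0.10, adjusted p = 1.51e-05), keratins of basal or activated epithelial cells. DSP in that comparison was at -0.22 (-0.58 to 0.14). EDTA raised 5 keratins in Addback (8.64% of all genes rose), a count of 2 to 7 without a library in turn. Keratins have near-identical relatives and pseudogenes that may share reads.

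Of 16 listed regulators, 15 were tested. GRHL2, an epithelial transcription factor, had at most 1 count in any library. SNAI2, a Snail-family repressor of cadherin genes, was at 69.2 and 70.3 CPM in Vector NA, 285 and 261 in Vector EDTA, 129 and 142 in B4-4 NA, 62.9 and 65.1 in B4-4 EDTA, 65.2 and 80.3 in Addback NA, and 93.4 and 45.7 in Addback EDTA. The Vector EDTA pair was far above the other 10 libraries. EDTA raised it in Vector (1.97 ± 0.27, log2, adjusted p = 0.0016), and in EDTA it was lower in B4-4 (-2.09, adjusted p = 0.000296) and in Addback (-1.97, adjusted p = 0.000722) than in Vector. The epithelial transcription factor GRHL3 was higher in Addback than in Vector in NA (1.26, adjusted p = 0.000685) and fell with EDTA in Addback (-2.15, adjusted p = 0.000112). ZEB2, a repressor of epithelial genes, was at 11.4 and 10.2 CPM in Addback NA against 1.07 and 0.617 in Vector NA (3.68 ± 0.40, adjusted p = 3.57e-05). Of the 15, 5 fell with EDTA in Addback, beside 8.29% of all genes that fell, a count of 3 to 6 without a library in turn.

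Across the 12 libraries, the levels of DSC3 and PKP2 had a Pearson correlation of 0.82, DSP and PKP2 of 0.79, and DSG2 and DSC2 of 0.72, on log2 CPM. PKP2 and PKP3 ran opposite (-0.77), as did DSC3 and PKP3 (-0.70), and the neighbouring desmocollins had -0.31. These correlations, and those that follow, are descriptions of 12 points that share 6 groups and 2 split pairs. Among the 10493 tested genes whose mean reached 5 CPM, the most alike to DSC3 were EPB41L5 (0.940), a FERM-domain protein, CEBPD (0.936) and ARHGEF12 (0.935). For DSG2 the first was YAP1 (0.961), the transcriptional coactivator of Hippo signalling, for DSG3 USP54 (0.919) and for DSC2 FAM104A (0.964). For DSP it was DYNC2H1 (0.955), for PKP2 LRPPRC (0.962), for PKP3 IRF3 (0.944) and for PKP1 ZNF268 (0.937). CEBPD stood at 75.7 to 91.6 CPM in the 6 libraries of high DSC3 and 32.2 to 60.1 in the 6 of low DSC3. YAP1 was at 285 and 284 CPM in the B4-4 EDTA pair, where DSG2 was highest, and at 206 to 249.9 in the others.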

How the data were processed

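The 12 libraries were made from polyA RNA (250 ng of total RNA) with a stranded kit and sequenced as 150 bp paired ends, per the labels' protocols. What the authors deposited are raw counts of reads for each Ensembl gene, as whole numbers. The submitters' processing notes name TopHat2 2.1.1, SAMtools 1.4.1, featureCounts 1.5.3 and, with no roles, the builds GRCh38, hg19 and hg38. Whether strand was used in counting is not stated there, so a gene and its antisense partner cannot be told apart.

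Identifiers were matched to symbols with GENCODE release 29 (57895 of 58233). Counts were fitted in R 4.3.3 with edgeR 4.0.16: filterByExpr, TMM scaling, 6 group means over all 12 libraries, robust quasi-likelihood dispersions, and Benjamini-Hochberg adjustment over 15749 genes in each of 12 comparisons. The threshold was an adjusted p of 0.05. SE is the log2 fold change over the root of its F statistic. The procedure was tested on simulated data. A count of 3, taken as the floor, was 0.135 to 0.191 CPM. DESeq2 1.42.0, other scalings and filters, a replicate block, a term for library number series and leaving out each library were alternatives, the last for gene lists chosen after seeing the data.

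The 8 genes and the lists were chosen with earlier results of these data known. Named were the 8 genes, the other desmosome genes, up to 4 called genes per other list and comparison with the smallest p, and the 3 most correlated genes per member. 1 gene of these lists is not reported here.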

Additional observations from a re-analysis of the deposited data

Results flagged for a closer look

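The response to EDTA differed between derivatives, by edgeR's test of the difference itself, for 7 values (log2 scale, 2 libraries per group). From Vector to B4-4 the response of DSG2 rose by 0.47 (adjusted p = 0.0387) and that of DSC2 by 0.79 (0.0465). From Vector to Addback the response was higher by 1.04 for DSC2 (0.0162) and 0.45 for PKP3 (0.046). It was lower there by -1.15 for DSC3 (0.000313) and by -0.80 for PKP2 (0.00982). DSC3 also differed between Addback and B4-4, by -1.10 (0.00141). The 2 differences of DSC3 and that of PKP2 were kept under all 19 alternatives, and the other 4 were each lost without 1 or more single libraries. No group had enough libraries for a check of single outlying samples.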

How the results depend on the processing

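Of 32 called values of the 8 genes, 11 were kept under all 19 alternatives and 0 changed sign. Leaving out 1 library at a time, the number of the 8 genes called ranged from 0 to 3 for EDTA in Vector, 0 to 2 in B4-4 and 1 to 5 in Addback. It ranged from 0 to 3 for B4-4 against Vector in NA and 4 to 6 in EDTA, from 2 to 4 and 0 to 4 for Addback against B4-4, and from 1 to 4 and 1 to 5 for Addback against Vector. For the differences of EDTA effects it ranged from 0 to 2 (B4-4 minus Vector), 2 to 4 (Addback minus Vector) and 1 to 3 (Addback minus B4-4). A lone library left in a group is assumed to vary like the other groups. Upper-quartile scaling gave 1 call for the difference B4-4 minus Vector and 2 for Addback minus B4-4. No filter on low counts gave 5 for EDTA in Addback, 3 for B4-4 against Vector in NA, 5 for Addback against B4-4 in EDTA, and 4 and 3 for the differences B4-4 minus Vector and Addback minus B4-4. DESeq2 gave 2 for B4-4 against Vector in NA and 2 for the difference Addback minus B4-4. The library number series as a term gave 1 for Addback against B4-4 in EDTA, which was DSP, higher in Addback (0.95, adjusted p = 0.0127). It lost the 3 lower calls of that comparison, DSG2, DSC2 and PKP1. For the difference B4-4 minus Vector it kept the count at 2 with both genes replaced, DSG2 and DSC2 lost and DSP and PKP2 gained, and for Addback against Vector in NA it lost DSG3 and gained DSC3 and PKP2. Fits of only the groups compared gave 4 for EDTA in Vector, 0 for EDTA in B4-4, 0 for B4-4 against Vector in NA and 7 for Addback against Vector in NA. Why calls moved was not tested for any of these fits.

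Replicate numbers showed no pairing shared by all groups. The differences between replicates 1 and 2 correlated at -0.17 to 0.30 over 15 pairs of groups, with 5 over 0.1. Pairing of some groups is not excluded by this, as Vector EDTA and B4-4 EDTA had the 0.30. A fit with the replicate block called 1 gene for the difference B4-4 minus Vector and lost 2 of the 32 values, DSC2 for that difference (adjusted p = 0.0645) and PKP3 for Addback minus Vector (0.0504). Of the 32, RLE scaling lost 1, upper-quartile scaling 4, no filter 0, DESeq2 1, and the series term 9. The smaller fits lost 6 of 31, as PKP1 for EDTA in Addback gave no value there. Depth limits PKP1, with 0 to 28 counts per library.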

Other observations

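Several keratins varied more over the 12 libraries than any desmosomal gene above the floor. KRT6B, a keratin of activated and fast-dividing epithelial cells, ran from 12.4 CPM in Vector EDTA 1 to 213 in B4-4 EDTA 2, and KRT16 from 17.7 in Addback NA 2 to 283 in Vector NA 2. KRT15, a basal keratin, ran from 121 CPM in B4-4 EDTA 1 to 1438 in B4-4 NA 1. Reads of close relatives of these keratins cannot be told apart here, and the 3 were chosen after their values were seen. Among the 7 desmosomal genes other than PKP1, which had 0 counts in 1 library, DSG3 had the widest range, 2.97-fold, and PKP3 the narrowest, 1.58-fold.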
